A study of Mus musculus with 12 samples.

Results

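The genes described here encode proteins of the cytosolic ribosome. They were chosen by name among the probe sets to which the array annotation gives a single gene symbol: the symbols of large subunit (Rpl) and small subunit (Rps) proteins, with *Rplp0*, *Rplp1*, *Rplp2* and *Rpsa*, and without the kinases of the Rps6k family. This gave 43 probe sets of 30 genes, of 8251 genes with a single symbol on the array, and where a gene had more than 1, the brightest on average over the 12 arrays stood for it. *Rplp1*, *Rplp2*, *Rps6*, *Rpl5* and *Rpl11* had no probe set of this kind and were not analysed here. Another 29 ribosomal protein genes lie only on probe sets whose annotation names more than 1 gene, and they enter only where stated.

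The cytosolic ribosome is built from a large and a small subunit, in which the proteins are held on a scaffold of ribosomal RNA and are needed in equal numbers. The mRNAs of these proteins are among the most abundant of a lymphocyte, and most carry a run of pyrimidines at the 5′ end (the TOP motif), through which mTOR signalling controls their translation. T-cell activation is known to raise ribosome production, for which MYC induces the genes of rRNA synthesis and of ribosome assembly.

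Total thymocytes of 6 female mice aged 6 to 7 weeks, of the strain C57Bl/6 x 129Sv (F1), were measured on Affymetrix MG-U74Av2 arrays. Control animals comprised 2 Med23+/+;Lck-Cre mice, which carry the Cre transgene and intact *Med23*, and 2 Med23flox/flox mice, which carry the floxed alleles and no Cre. The MED23 null group was 2 Med23flox/flox;Lck-Cre mice, in which the *Lck* promoter drives Cre, and thus deletion of *Med23*, in T-lineage cells during their development in the thymus. MED23 is a subunit of Mediator, the complex that links transcription factors to RNA polymerase II. After 4 h of rest the cells of each mouse were split, and one portion was kept for 3 h on plate-bound antibody against CD3 (αCD3), which engages the T-cell receptor complex, and the other without it (mock). Each mouse gave 1 array per treatment, so that n is 4 control and 2 MED23 null mice. Cells outside the T lineage and cells that escaped deletion were not removed.

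Signals are MAS5 intensities in arbitrary units, scaled to a common trimmed mean, and differences are on the scale of log2(signal + 50). The test was limma over the 9478 probe sets whose mean signal reached 100 in any of the 6 combinations of genotype and treatment, with Benjamini-Hochberg adjusted p values and a threshold of 0.05. The probe set of *Med23* had signals of 288 to 424 on the 4 mock control arrays and of 207 and 268 on the MED23 null mock arrays (log2 difference -0.53, adjusted p = 0.590 from limma), and whether its probes lie in the deleted exons was not examined. The 9 measured thymocyte markers, among them *Cd3e*, *Cd8a* and *Rag1*, had mean signals of 333 to 27281 and a summed signal of 101448 to 106990 on mock control and 82510 to 87852 on mock MED23 null arrays. Of the 9, 8 were lower on the mean of the MED23 null mock arrays, against 47.75% of all probe sets tested and 60.96% of those with a mean signal of at least 5000 outside the genes described here. *Cd4* was higher, at 5374 and 4965 against 3959 to 4513. One array stood apart from the rest: the αCD3 array of Med23flox/flox mouse 1 had a lower quartile of signal of 85.2, against 50 to 58.2 on the others, and a mean correlation with the other arrays of 0.905, against 0.937 to 0.945.

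The promoters and 5′ ends of these genes were searched for the pyrimidine run, beside those of the ribosome assembly factors described further on. Annotated start sites were taken from RefSeq (GRCm38.p6), which held starts for 24 of the 30 genes (32 starts), and not for *Rpl32*, *Rpl7*, *Rpl8*, *Rps14*, *Rps20* and *Rps29*. A run of at least 8 C or T, on the coding strand between 10 bases before and 20 bases after the start, was found at 10 of the 32 starts (31.2%), against 11.2% of all 32841 starts and 3 of 48 starts (6.25%) of ribosome assembly genes. The 4 shown next hold the longest runs within this window among the genes with a mean signal of at least 1000, with the run in capitals, 5′ to 3′ on the coding strand, from 10 bases before the annotated start. They lie at chr2:26910797-26910826 (plus strand), chr7:45128726-45128755 (minus), chr17:27635225-27635254 (minus) and chr17:33955646-33955675 (minus).
Rpl7a: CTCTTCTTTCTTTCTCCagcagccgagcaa
Rpl13a: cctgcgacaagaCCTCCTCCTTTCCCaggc
Rps10: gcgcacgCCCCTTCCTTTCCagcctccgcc
Rps18: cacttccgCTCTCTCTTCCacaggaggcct
The run was 14 bases long in *Rpl13a*, 13 in *Rps10* and 11 in *Rps18*, and in *Rpl7a*, where it begins at the edge of the window, at least 17. Annotated starts can lie some bases away from those used in thymocytes.

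Sites named for the ETS family, whose member ELK1 works through MED23, and for MYC were searched in the 300 bases from 250 before to 50 after each start. The ETS-type motif CCGGAAG, on either strand, was present at 9 of the 32 ribosomal protein starts (28.1%), at 19 of the 48 assembly gene starts (39.6%) and at 8.86% of all starts. Its reverse complement ends a C/T run with CTTCC and can overlap it. The E-box CACGTG, which is its own reverse complement, was present at 4 ribosomal protein starts (12.5%, in *Rpl13a*, *Rps19* and 2 starts of *Rpl19*), at 13 assembly gene starts (27.1%) and at 7.15% of all starts. One example of each motif in a ribosomal protein gene and of the E-box in an assembly gene is shown in its 30-base window, at chr17:33955722-33955751 (minus), chr7:24884782-24884811 (plus) and chr11:74898093-74898122 (plus), with the motif in capitals.
Rps18: agaagcaatttCCGGAAGtggacctccggg
Rps19: ggagccgcggcCACGTGcgagcggcaggcc
Tsr1: cacttggtgcaCACGTGgactgcagaatgg
A match of letters is a description of the sequence, and binding was not measured here.

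Of the 30 genes, 20 had a mean signal of at least 1000 and are called bright here, a line drawn after the signals had been seen. The other 10 had mean signals from 58.0 (*Rps14*) to 410 (*Rpl22*), although their proteins are also parts of the ribosome. Signals of different probe sets are not amounts that can be compared, and a low one need not mean little mRNA. The brightest were *Rpl41*, which encodes the smallest ribosomal protein, with a mean of 50772, *Rps24* (47066), *Rplp0*, the base of the stalk that recruits elongation factors (36999), *Rps28* (34212), *Rps4x* (27976) and *Rpl7* (27171). The dimmest were *Rps14*, *Rpl35a* (60.6), *Rps20* (70.4) and *Rps15* (77.6). All 20 bright and 7 of the 10 dim genes passed the filter, and *Rps14*, *Rps15* and *Rps20* did not and were not tested.

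**Figure D1:**
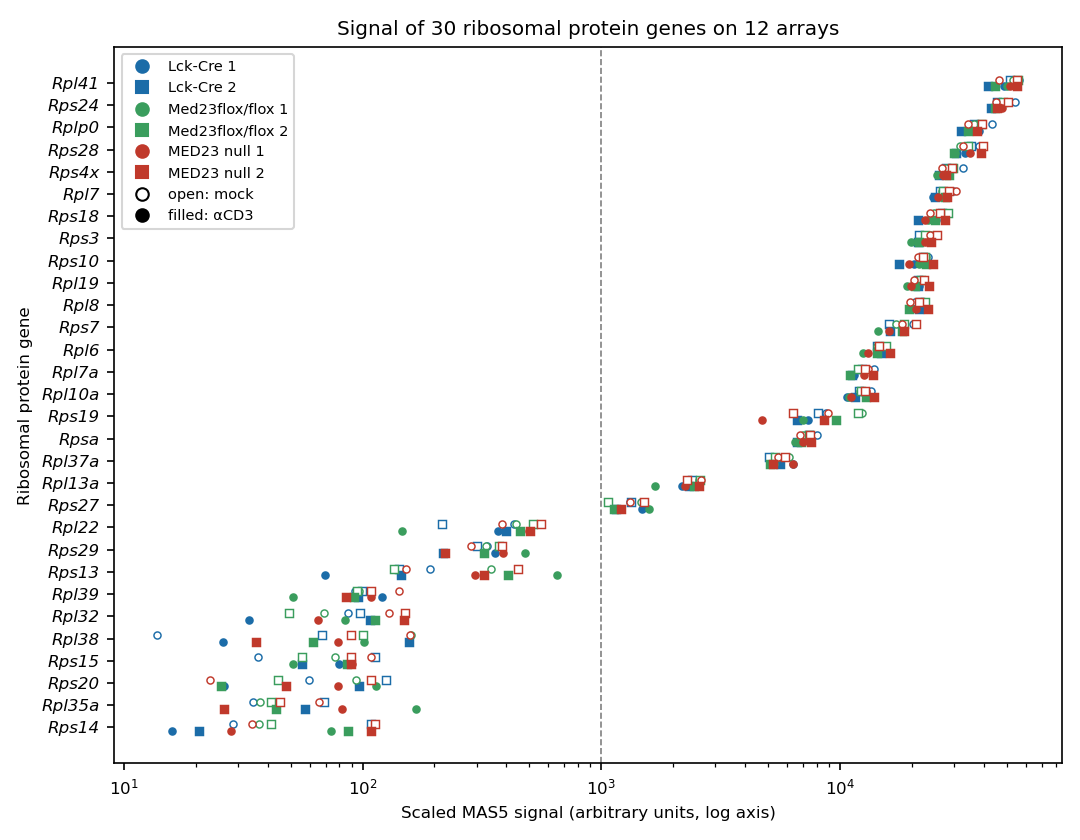
Scaled MAS5 signal (log axis) of the 30 genes on 12 arrays, open symbols for mock and filled symbols for αCD3, with colour for genotype and shape for mouse. The 20 genes to the right of the dashed line at 1000 lie close together over the arrays, most loosely *Rps19*, whereas the 10 to its left, with means from 58.0 to 410, scatter widely.

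Several probe sets of a gene did not measure alike. For 9 of the 30 genes there were more than 1 probe set, and *Rpl19* had means of 21318 and 231 and *Rps4x* of 27976 and, in its other 4 probe sets, at most 118. For *Rps28* both bright probe sets had the same control response to αCD3 (-0.17 each), and for *Rpl10a* they gave -0.12 and -0.24. The bright probe set annotated as *Rps24* derives from the same source sequence as that of *Rpl7*, and the other *Rps24* probe set had a mean of only 167 and a response of 0.51 against -0.14, so that the gene behind the bright one is uncertain.

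The first comparison asked how the ribosomal protein mRNAs responded to 3 h of T-cell receptor stimulation in control thymocytes. Their signals were slightly lower after αCD3: the median log2 difference of the 30 genes was -0.11, with 24 lower, and that of the 20 bright genes was -0.14, with 19 lower, whereas the median of all 9478 probe sets was 0.00. *Rps27*, a zinc finger protein of the small subunit, was the 1 bright gene that was not lower (0.03). No ribosomal protein gene passed the test, and none had an unadjusted p under 0.05. Of all probe sets, 14 passed (0.148%), all of them higher. The smallest adjusted p among the members was 0.695, for *Rpl41*.

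The summed signal of the 30 genes after αCD3 was 0.883 and 0.908 times that of mock in the 2 Lck-Cre mice and 0.908 and 0.914 times in the 2 Med23flox/flox mice. It was 0.993 and 0.997 times in the 2 MED23 null mice. Control and MED23 null mice did not overlap in this ratio. Nor did they in the median log2 difference of the 228 other probe sets with a mean signal of at least 5000. That median was -0.08, -0.06, -0.14 and -0.10 in the control mice and -0.02 and 0.04 in the MED23 null mice. The 30 genes made up 4.57% to 5.004% of all signal on the mock arrays of controls and 4.25% to 4.52% on their αCD3 arrays, and on the MED23 null arrays 4.54% and 4.91% with mock and 4.52% and 4.85% with αCD3.

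Within mice, the median difference of the 20 bright genes was -0.19 and -0.09 in the Lck-Cre mice, -0.14 and -0.10 in the Med23flox/flox mice, and -0.05 and 0.01 in the MED23 null mice. The mean of these medians was -0.13 ± 0.05 (SD, n = 4) for the controls, against -0.02 ± 0.04 (SD, n = 2) for the MED23 null mice. Between 16 and 19 of the 20 genes were lower in each control mouse, and 12 and 9 in the MED23 null mice. Other bright probe sets were displaced in the same direction. In the control mice the 228 other probe sets with a mean signal of at least 5000 had a median of -0.10, with 80.7% of them lower, and the 1941 others of at least 1000 had a median of -0.05, with 64.2% lower. In MED23 null mice these medians were 0.02 and 0.02.

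**Figure D2:**
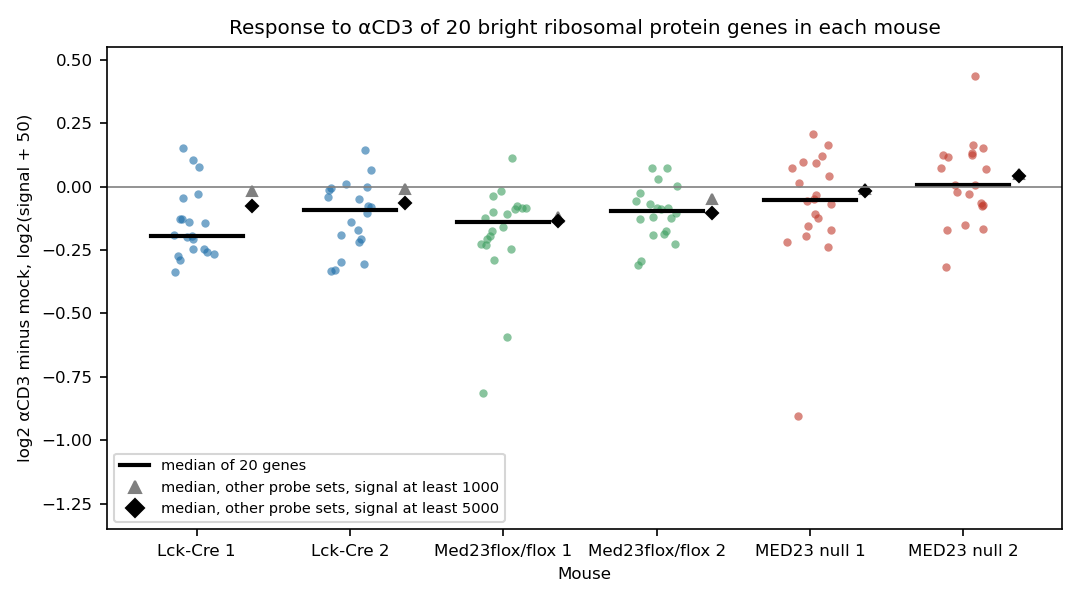
Difference of αCD3 minus mock, on the scale of log2(signal + 50), for each of the 20 bright genes (points) in each mouse, with their median (line) and the medians of other probe sets with a mean signal of at least 1000 (triangle) or 5000 (diamond). Medians of the genes lie from -0.19 to -0.09 in the 4 control mice and at -0.05 and 0.01 in the MED23 null mice, and in the control mice the diamonds also lie below 0.

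The size of the control difference also depended on the scaling. Quantile normalization gives every array the same distribution of values, which by construction removes a difference shared by its brightest probe sets. With it the control median of the bright genes was -0.01, with 12 of 20 lower, and with cyclic loess it was -0.02, also with 12 lower. The medians per control mouse then ranged from -0.05 to 0.00 and from -0.09 to 0.02, respectively. Those of the MED23 null mice were -0.06 and 0.03 after quantile normalization and -0.03 and -0.07 after cyclic loess, so that the genotypes overlapped. In bulk RNA, fewer cells of a type and less RNA per cell cannot be told apart.

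In 4 of 4 control mice, 12 of the 30 genes, all of them bright, were lower after αCD3, namely *Rpl13a*, *Rpl19*, *Rpl41*, *Rpl7a*, *Rplp0*, *Rps18*, *Rps19*, *Rps24*, *Rps28*, *Rps3*, *Rps4x* and *Rpsa*. The same was true of 8.68% of all probe sets tested, of 16.5% of the other probe sets of at least 1000 and of 32.0% of those of at least 5000. No member was higher in 4 of 4, against 9.16% of all probe sets. After quantile normalization and after cyclic loess 4 members were lower in all control mice, *Rpl13a*, *Rpl7a*, *Rps19* and the dim *Rps20* in both cases, against 8.87% and 8.15% of all probe sets. Without the αCD3 array that stood apart, and its mock partner, 13 members were lower in the 3 remaining control mice, against 16.1% of all probe sets. When the genes on shared probe sets were added, 24 of 59 were lower in 4 of 4, with a median of -0.12.

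*Rpl41* had mock signals of 56172 and 51553 in the Lck-Cre mice and 52981 and 55501 in the Med23flox/flox mice. After αCD3 they were 48636 and 41673, and 49914 and 44766. In the MED23 null mice the signals were 46158 and 54989 with mock and 51668 and 55258 after αCD3. All 4 control mice were thus lower after αCD3 and both MED23 null mice higher, with a control difference of -0.23 (SE 0.11), or 0.854-fold, and a MED23 null difference of 0.08. Of the 30 genes, *Rpl41* and *Rpsa* had these opposite directions in all mice, against 1.65% of all probe sets and 4.82% of the others with a signal of at least 5000. In MED23 null mouse 2 both were close to no change (0.007 and 0.0056).

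*Rpsa* encodes a small subunit protein that is also known as the laminin receptor. Its signals in control mice were 8028, 7416, 6984 and 7401 with mock and 6764, 6576, 6473 and 6873 with αCD3. In the MED23 null mice they were 6810 and 7521 with mock and 7008 and 7551 with αCD3. All αCD3 control arrays lay below all mock control arrays, and the mean was 7457 ± 430 (SD, n = 4) before and 6672 ± 180 (SD, n = 4) after αCD3, with a log2 difference of -0.16 (SE 0.11, adjusted p = 0.749 from limma). How many of all probe sets separate in this way was not counted. After quantile normalization and after cyclic loess *Rpsa* was not lower in all 4 control mice.

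*Rplp0* had control signals of 43493, 36529, 36412 and 38878 with mock and 38117, 32007, 35520 and 34408 with αCD3, in the order of the Lck-Cre and then the Med23flox/flox mice. Its log2 differences were -0.19, -0.19, -0.04 and -0.18, so that Med23flox/flox mouse 1 was close to no change and the other 3 were alike. In the MED23 null mice 34369 and 39273 with mock became 37400 and 37584.

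*Rps18*, at the head of the small subunit, had control log2 differences of -0.13, -0.33, -0.09 and -0.19 and MED23 null differences of -0.06 and 0.07. *Rpl7a*, whose pyrimidine run is shown above, had -0.27, -0.14, -0.17 and -0.12 in control and -0.05 and 0.12 in MED23 null mice. *Rps28* had -0.20, -0.22, -0.08 and -0.19 in control and 0.10 and -0.02 in MED23 null mice. In each of these 3 genes both MED23 null mice lay above all 4 controls.

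*Rps19*, the gene most often mutated in Diamond-Blackfan anaemia, had the largest control difference among the members, -0.41 (SE 0.23, adjusted p = 0.704 from limma). Its signals on the mock arrays were 8754 and 8097 in Lck-Cre mice but 12307 and 11860 in Med23flox/flox mice, and after αCD3 they were 7367 and 6581, and 6976 and 9659. In the MED23 null mice they were 8894 and 6354 with mock and 4733 and 8601 with αCD3, so that one mouse was lower by 0.90 and the other higher by 0.43 on the log2 scale. The spread between MED23 null mice thus exceeded the difference between the genotypes.

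**Figure D3:**
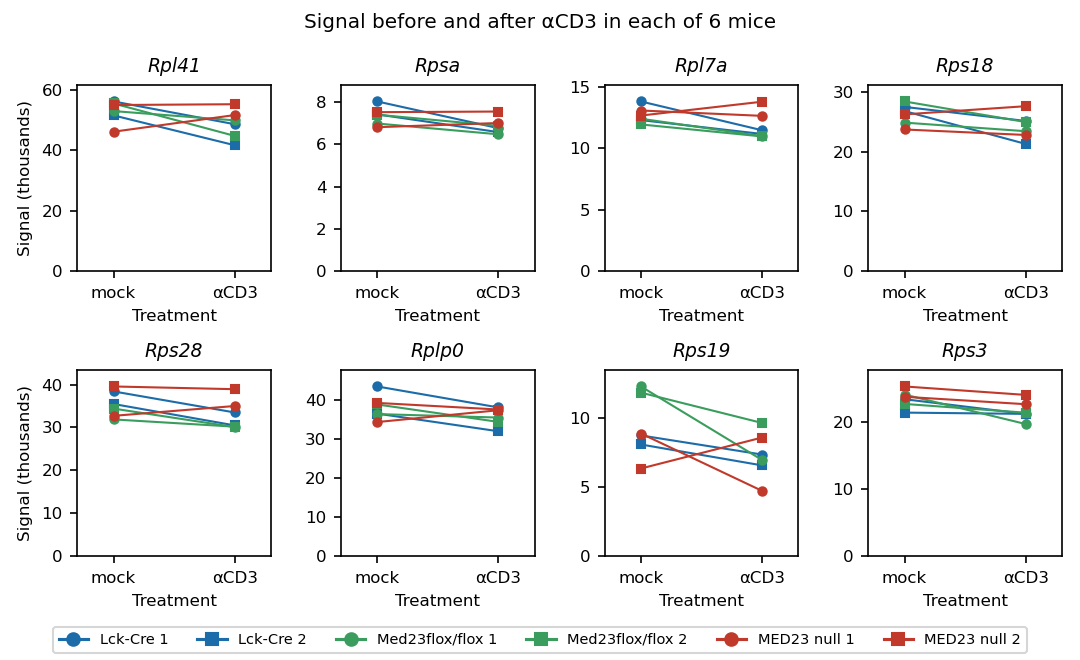
Signal (in units of 1000 arbitrary units, axes from 0) with mock and with αCD3 for 8 of the bright genes, 1 line per mouse, coloured by genotype. In *Rpl41* and *Rpsa* the 4 control lines slope down and both MED23 null lines up, that of mouse 2 barely, and in *Rps19* the MED23 null lines cross.

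Among the dim genes the control differences went both ways (5 lower and 5 higher), and single mice lay far apart. *Rpl35a* had the highest value (0.39, SE 0.25), followed by *Rps13* (0.28, SE 0.39), *Rpl32* (0.07) and *Rpl38* (0.04), while *Rps20* and *Rpl22* were at -0.23 each. *Rpl22*, which is dispensable for most cells but needed by αβ T cells in development, ranged from -1.32 to 0.76 between control mice. *Rpl38*, whose loss alters the translation of homeobox mRNAs, ranged from -0.47 to 0.81. In each of the 10 dim genes some control mice were lower and others higher.

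In MED23 null thymocytes the response to αCD3 was close to 0. The median was -0.03 for the 30 genes (17 lower) and 0.00 for the bright genes (10 lower, 10 higher), and that of all probe sets was -0.02. No member passed the test, and 3 of all probe sets did (0.0317%). Both mice were lower in 9 members, against 26.3% of all probe sets, and 3, *Rpl41*, *Rpl8* and *Rpsa*, were higher in both, against 23.2%. The lowest values were those of *Rpl38* (-0.69), *Rpl32* (-0.32), *Rpl39* (-0.25) and *Rps19* (-0.23), and the highest those of *Rps13* (0.18), *Rpl22* (0.10), *Rpl8* (0.09) and *Rpl41* (0.08).

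The next question was whether the response differed between genotypes. The difference in response, MED23 null minus control, had a median of 0.09 over the 30 genes and of 0.14 over the bright genes, 17 of which were higher. For other probe sets the median was 0.11 at a signal of at least 5000, 0.06 at 1000 and -0.02 over all. No member passed the test of the difference, and none of all 9478 probe sets did (0%), with 486 at an unadjusted p under 0.05 and no member among them. The largest difference of a bright gene was that of *Rpl41*, 0.31 (SE 0.20, adjusted p = 1.00 from limma), and *Rps27* had the lowest, -0.24 (SE 0.21).

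Both MED23 null mice lay above all 4 control mice in *Rpl41*, *Rpl7a*, *Rps18*, *Rps28* and *Rpsa*. These were 5 of 30 genes, against 6.06% of all probe sets, 9.74% of the other probe sets of at least 1000 and 15.8% of those of at least 5000. After quantile normalization this held for 1 member, *Rplp0*, and after cyclic loess for none, against 6.5% and 6.47% of all probe sets. The median difference was then 0.03 and -0.03, respectively. Integrity of the RNA can be read from the 3′ to 5′ ratio of the beta-actin control probe sets. After αCD3 this ratio was 1.90 and 1.61 in MED23 null and 1.35 to 1.41 in control mice, and with mock 1.44 and 1.63 against 1.35 to 1.60. The same ratio of GAPDH after αCD3 was 0.636 and 0.766 in MED23 null and 0.599 to 0.648 in control mice. The part of RNA integrity in the result was not tested.

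Without stimulation the MED23 null and control arrays had similar ribosomal protein signals. Against Lck-Cre the median mock difference was 0.02 for the 30 genes and -0.03 for the bright genes (13 of 20 lower). Against Med23flox/flox it was -0.02 and -0.03 (13 of 20 lower). None of the members and none of all probe sets passed either test (0% and 0%), while 692 and 696 probe sets had an unadjusted p under 0.05, of which 1 and 2 were members.

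Both MED23 null mock arrays lay above both Lck-Cre arrays in *Rpl32*, *Rpl38*, *Rpl39* and *Rps3* (4 of 30, against 19.8% of all probe sets) and below them in *Rps18* (1 of 30, against 18.6%). They lay above both Med23flox/flox arrays in 7 members (19.6% of all probe sets), among them *Rpl7*, *Rpl7a* and *Rpl10a*, and below them in *Rpl8*, *Rps10* and *Rps19* (17.8%). The lowest differences from Lck-Cre were those of *Rps20* (-0.37), *Rps19* (-0.16), *Rps18* (-0.12) and *Rplp0* (-0.12). The highest were in dim genes, *Rpl38* (0.97), *Rps13* (0.56), *Rpl22* (0.53) and *Rpl32* (0.42).

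From Med23flox/flox the lowest difference was that of *Rps19*, -0.68 (SE 0.22, adjusted p = 0.569 from limma), which rests on the high signals of the floxed mice given above. Between the control genotypes *Rps19* differed by -0.52. *Rpl8* (-0.14), *Rps20* (-0.11) and *Rpl41* (-0.11) followed. At the other end stood *Rpl32* (0.80, SE 0.19, adjusted p = 0.452 from limma), with signals of 129 and 150 in MED23 null and of 68.6 and 49.3 in floxed mice, then *Rps14* (0.39), *Rps15* (0.36) and *Rpl39* (0.26), all of them dim.

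On the mean of their 2 αCD3 arrays, the MED23 null mice had slightly higher signals of ribosomal protein genes than either control genotype. The 2 arrays were not alike. Relative to each gene's own mean, the median of the bright genes was -0.05 in MED23 null mouse 1 and 0.11 in mouse 2. On the αCD3 control arrays it ranged from -0.13 to -0.05, so that MED23 null mouse 1 lay within the control range. The median difference from Lck-Cre was 0.10 for the 30 genes and 0.10 for the bright genes, 16 of 20 of which were higher. From Med23flox/flox it was 0.08 and 0.11, also with 16 of 20 higher. These arrays also entered the responses above, so both comparisons share their data. Other probe sets with a signal of at least 5000 had medians of 0.04 and 0.08. No member and none of all probe sets passed (0% and 0%), with 458 and 732 probe sets at an unadjusted p under 0.05, of which 1 and 0 were members.

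Against Lck-Cre both MED23 null αCD3 arrays lay above both control arrays in 12 of 30 members, 8 of them bright (*Rpl41*, *Rpl7*, *Rpl7a*, *Rps24*, *Rps28*, *Rps3*, *Rps4x* and *Rpsa*), against 17.8% of all probe sets, and below them in none, against 18.5%. Against Med23flox/flox they lay above in 9 members (16.2% of all), 7 of them bright, and below in *Rps13* alone (20.2%). Of other probe sets, 19.4% at a signal of at least 1000 and 22.4% at 5000 lay above both Lck-Cre arrays. Above both Med23flox/flox arrays these shares were 27% and 28.5%, close to the 9 of 30 members. Of the bright genes, *Rpl41*, *Rpl7a*, *Rps28*, *Rps3* and *Rpsa* were above both control genotypes, as were the dim *Rpl22* and *Rps15*. With cyclic loess the median of the bright genes was 0.05 against Lck-Cre and -0.01 against Med23flox/flox.

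The largest αCD3 differences from Lck-Cre were again in dim genes. *Rps13* was at 1.23 (SE 0.33, adjusted p = 0.758 from limma) against Lck-Cre and at -0.66 against Med23flox/flox, with signals of 296 and 322 in MED23 null, 69.3 and 145 in Lck-Cre and 649 and 408 in floxed mice. The value for MED23 null mice thus lay between those of the control genotypes. *Rps14* (0.70), *Rpl32* (0.41) and *Rpl22* (0.34) were the next highest against Lck-Cre, and *Rpl38* (-0.25), *Rps19* (-0.12), *Rpl39* (-0.11) and *Rps27* (-0.10) the lowest. Against Med23flox/flox *Rpl22* was at 0.81, *Rpl39* and *Rps28* at 0.29 and *Rpl7a* at 0.265, and *Rpl35a* (-0.505), *Rps29* (-0.36) and *Rps19* (-0.36) were low beside *Rps13*.

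**Figure D4:**
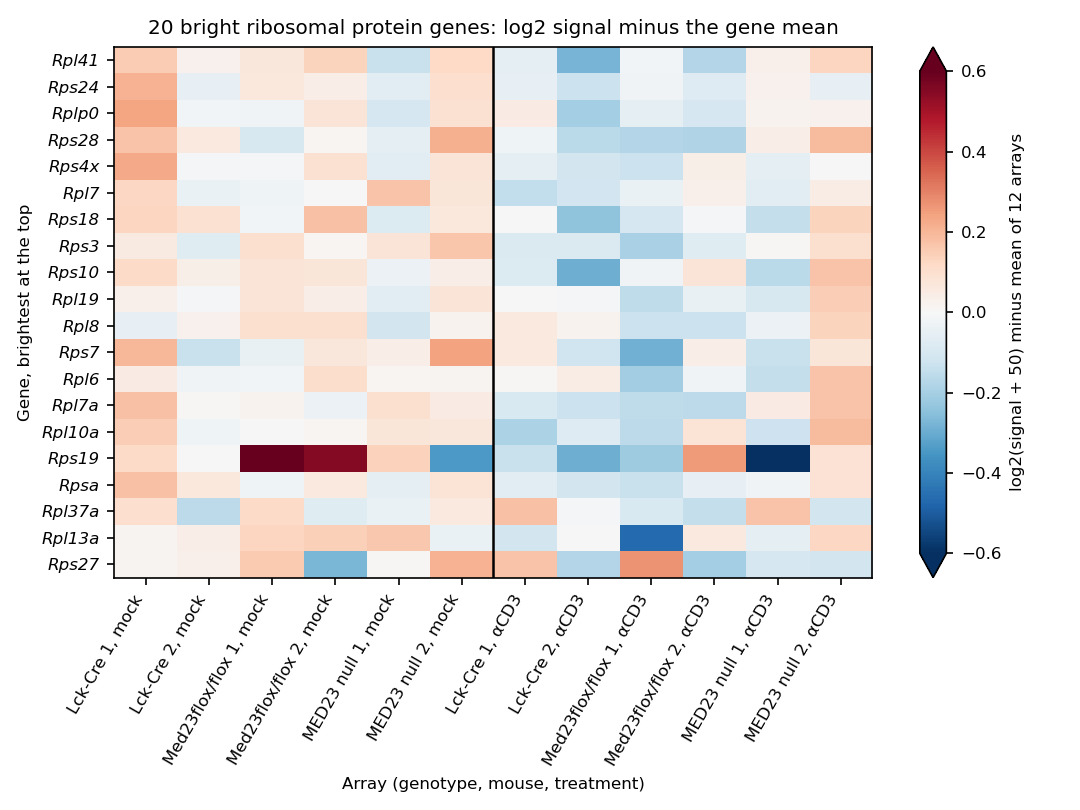
Log2(signal + 50) of the 20 bright genes on the 12 arrays, each gene minus its mean over the arrays (red higher, blue lower, colours end at 0.6 in either direction), mock arrays left of the line and αCD3 arrays right of it. Under αCD3 the 4 control columns and that of MED23 null mouse 1 are mostly blue, with medians from -0.13 to -0.05, and MED23 null mouse 2 is mostly red, with medians of 0.07 under mock and 0.11 under αCD3.

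The bright genes varied together over the arrays. The median correlation between pairs of them, over the 12 arrays and 190 pairs, was 0.462 (from -0.572 to 0.878), against 0.0518 between other probe sets of at least 1000. The arrays share scaling, treatment and mouse, and this is given as a description. The genes closest to the mean of the others were *Rpsa* (r = 0.845), *Rps18* (0.814) and *Rps4x* (0.789), and *Rpl37a* (0.0224) and *Rps27* (-0.117) did not follow it. Relative to each gene's own mean, the median of the bright genes was lowest on the αCD3 arrays of Med23flox/flox mouse 1 (-0.13) and Lck-Cre mouse 2 (-0.12) and highest on the mock array of Lck-Cre mouse 1 (0.13) and the αCD3 array of MED23 null mouse 2 (0.11). The 2 MED23 null mice differed from each other more than either did between treatments, since mouse 1 was at -0.04 with mock and -0.05 with αCD3, and mouse 2 at 0.07 and 0.11.

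Other genes of the translation apparatus were compared as lists. For TOP mRNAs of genes without an Rpl or Rps symbol, 12 of 16 tested were lower in control mice after αCD3. The median of the 16 was -0.10. Among the lower ones were *Eef2*, the translocase of elongation (-0.22), *Eef1b2* (-0.25) and *Eif4b* (-0.20). *Fau* (-0.11), which encodes a small subunit ribosomal protein as part of a fusion, was also among them. After quantile normalization the median of this list was -0.05 (9 of 16 lower) and after cyclic loess -0.04 (10 of 16 lower). *Naca* (0.32), *Vim* (0.31) and *Hnrnpa1* (0.21) were the highest of this list. Elongation factors, which share members with it, had a median of -0.10 with 6 of 9 lower (-0.06 under either of these scalings), and initiation factors a median of 0.00 with 16 of 32 lower, from *Eif4ebp1*, an inhibitor of the cap-binding protein (-0.36), to *Eif4e*, the cap-binding protein itself (0.75). No gene of these lists passed the test.

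Genes of ribosome assembly (ribosome biogenesis) had the opposite sign as a list, but not those with a mean signal of at least 1000, given below. Of 51 tested, 40 were higher and 11 lower in control mice after αCD3, with a median of 0.26, and 17 had an unadjusted p under 0.05, all of them higher, against 7.78% of all probe sets in either direction, although none passed after adjustment. *Bysl*, a factor of small subunit assembly, had control signals of 206, 103, 43.7 and 171 with mock and 457, 336, 318 and 448 with αCD3, a log2 difference of 1.36 (SE 0.18, adjusted p = 0.0603 from limma). Every αCD3 control array lay above every mock control array. *Bysl* had the largest difference of the list, and how many of all probe sets separate in this way was not counted. In the MED23 null mice *Bysl* was at 190 and 160 with mock and at 256 and 255 with αCD3, a difference of 0.45. *Rrs1* (1.15), a factor of large subunit assembly, and *Tsr1* (1.07), of the small subunit, came next in control mice, and *Mybbp1a* (-0.39), *Wdr12* (-0.38) and *Exosc5* (-0.22) were the lowest. Assembly genes with a mean signal of at least 1000 went both ways in control mice. *Exosc5*, *Imp3* (-0.09), *Emg1* (-0.08), *Ddx47* (-0.02), *Sbds* (-0.02) and *Ncl* (-0.0013) were lower. *Fbl* (0.27), *Rrp1* (0.10), *Utp3* (0.08) and *Nop10* (0.03) were higher.

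The median of the assembly list kept its size under the other scalings, with 0.27 after quantile normalization (40 of 51 higher) and 0.27 after cyclic loess (42 of 51 higher). In MED23 null mice the list had a median of 0.13, with 42 of 51 higher. The difference between genotypes had a median of -0.04, with 27 of 51 lower, and none passed. *Myc* had signals of 111 to 145 on the mock control arrays and of 285 to 466 with αCD3, a difference that did not pass the test (1.33, adjusted p = 0.0521 from limma), and in MED23 null mice it was at 85.0 and 111 with mock and at 201 and 349 with αCD3.

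**Figure D5:**
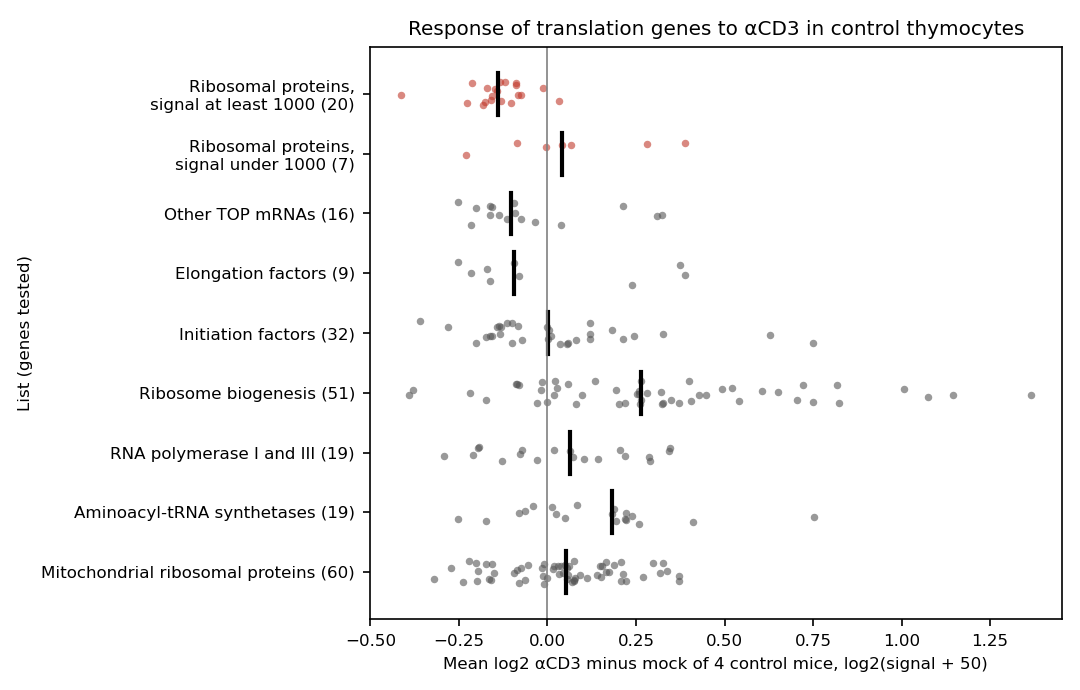
Mean log2 difference of αCD3 minus mock over the 4 control mice for each tested gene (points) of the ribosomal proteins, split at a mean signal of 1000, and of 7 other translation lists, with the median of each list (line). The bright ribosomal proteins lie in a narrow band with a median of -0.14, and the ribosome assembly genes reach from -0.39 to 1.36 with a median of 0.26. The assembly genes are not split by signal.

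Aminoacyl-tRNA synthetases, which load tRNAs with amino acids, had a median of 0.18 with 14 of 19 higher in control mice (*Cars* 0.75, *Iars* 0.41, *Aars* 0.26, and at the other end *Wars* -0.25). Genes of RNA polymerases I and III had a median of 0.06 with 8 of 19 lower. Mitochondrial ribosomal proteins, which serve a different ribosome, had a median of 0.05 with 23 of 60 lower, from *Mrps12* (-0.32) to *Mrpl55* (0.37). None of these lists held a gene past the test.

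Signals of cell type markers were compared in the same way. On the mean over control mice 8 of 9 thymocyte markers were lower after αCD3, with a summed signal of 91806 to 96257 against 101448 to 106990 with mock. Of all probe sets 49.65% were lower, and of the other probe sets with a mean signal of at least 5000 80.7%, with a median of -0.10. All 5 markers of mature single positive cells were lower too (2114 to 2529 against 2328 to 4218), but not in every mouse. *Klf2* fell from 415 and 343 to 38.3 and 34.2 in Lck-Cre mice. In Med23flox/flox mice *Klf2* rose from 47.7 and 64.4 to 83.1 and 88.1. *S1pr1* (161 to 326) and *Il7r* (649 to 681) rose in Med23flox/flox mouse 1 and fell in the other control mice. The median of the thymocyte markers was -0.09, from *Cd8b1* (-0.21) and *Dntt* (-0.19) to *Ptcra* (0.12). In MED23 null mice the thymocyte sum was 85721 to 85911 after αCD3, and the sum of mature single positive markers was 1640 to 1641 with mock and 1317 to 1341 with αCD3, below all controls. Of the NK markers *Gzma*, a granzyme, was at 3268 to 4825 on MED23 null arrays against 1018 to 1548 on control arrays, while *Ncr1*, a receptor of NK cells, was at 6.80 to 18 against 7.1 to 48.9. Sums of myeloid markers were 1224 to 1260 on MED23 null and 799 to 1078 on control arrays with mock, and those of B-cell markers 7323 to 8583 against 6175 to 7663. The B-cell sums were mostly *Ighm*, at 5749 to 7093 on MED23 null and 5044 to 6456 on control arrays. *Ms4a1* was at 488 and 443 against 273 to 304 with mock, and at 402 and 227 against 308 to 383 with αCD3. Erythroid markers summed to 37029 and 38195 on the arrays of MED23 null mouse 1, to 14711 and 15652 on those of mouse 2 and to 6114 to 16590 on control arrays. Epithelial markers summed to at most 320 on any array. Their part in the ribosomal protein signals was not tested.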

How the data were processed

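The intensities analysed were deposited by the authors as MAS5 signals per probe set on a linear scale, and no version of MAS5 is given in the sources used here. Each array was scaled to the mean of Lck-Cre mouse 1, mock, with 2% trimmed at each end, which moved no array by over 0.01%, and log2 was taken after 50 was added. The array holds 12488 probe sets, of which the 66 control probe sets were not tested, and 9478 met the signal filter. Differences between αCD3 and mock were formed within each mouse, which the labels identify, and compared between control and MED23 null mice (4 residual degrees of freedom). Mock and αCD3 arrays of a mouse deviated together only weakly, with correlations of 0.061 to 0.149. Between mock arrays of different genotypes with the same replicate number the correlations were -0.011 to 0.0508. The labels' descriptions give 1 identifier to both the αCD3 array of Lck-Cre mouse 2 and the mock array of Med23flox/flox mouse 1, so that mouse and genotype rest on the titles. Genotypes were compared within each treatment (3 residual degrees of freedom). R 4.3.3 with limma 3.58.1 was used for 11 comparisons, and Python 3.11.15 with matplotlib 3.10.9 for sequences and figures. Fits were tested on simulated data. P values measure only the spread between these mice. Detection calls were not used. Precision is limited by how few arrays there are.

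The members and lists were chosen with earlier results of these data known, and so was the rule for named genes: the 6 brightest and 4 dimmest members, the 4 most extreme in each direction per comparison, members of known roles, up to 3 genes in each direction per list, *Myc* and *Med23*. Other members are named where a count of non-overlapping arrays is given, after their values were seen. Annotation gave 10833 probe sets 1 symbol, 396 several and 1193 none.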

Additional observations from a re-analysis of the deposited data

Results flagged for a closer look

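In 3 genes the lowest or highest of the 4 control responses to αCD3 stood apart from the other 3, with a gap to the nearest value that made up 0.847 of the range in *Rpl13a*, 0.907 in *Rplp0* and 0.912 in *Rps19* (Dixon's criterion at the 95% level). About 1 in 20 groups is marked by chance, and 30 genes were examined. All 3 rest on Med23flox/flox mouse 1, whose αCD3 array had the high lower quartile. Its log2 difference was -0.59 in *Rpl13a* and -0.81 in *Rps19*, below the other mice, and -0.04 in *Rplp0*, above them.

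In 2 genes all 4 control mice were lower after αCD3 and both MED23 null mice were higher, as in 1.65% of all probe sets. The difference in response was 0.3123 in *Rpl41* and 0.1814 in *Rpsa* on the log2 scale, and limma did not call either (adjusted p = 1.00 for both). In MED23 null mouse 2 the rise was only 0.007 in *Rpl41* and 0.0056 in *Rpsa*. After cyclic loess the differences in response were 0.15 and 0.08. Neither gene was lower in all 4 control mice after cyclic loess or after quantile normalization, so that the opposite directions did not hold there.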

How the results depend on the processing

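No member passed the threshold in any comparison under any alternative. Of 359 values for single genes, chosen among the differences described above, 358 kept their sign, with a lowest adjusted p of 0.287 from limma. The members as a whole were less stable in sign. Of the 20 bright genes, 19 were lower in the control response, but 12 after quantile normalization and 12 after cyclic loess. The median control response of the members was -0.0312 after quantile normalization and -0.0256 after cyclic loess. With each of these, 4 of the 30 members were lower in every control mouse, against 8.87% and 8.15% of all probe sets. With the main scaling it was 12 of 30, against 8.68%. When genes of shared probe sets were added under the main scaling (chosen after seeing the data), it was 24 of 59. The median MED23 null response was -0.0114 with 10% trimmed scaling, -0.0092 after quantile normalization, 0.0006 with the mean of all probe sets of a gene, -0.0138 with probe sets without a suffix letter and 0.0006 over the 20 bright genes (also chosen after seeing the data). The median difference in response was 0.0327 after quantile normalization and -0.0295 after cyclic loess. With cyclic loess the αCD3 median of MED23 null was -0.0063 against Med23flox/flox and 0.0098 against both control genotypes. The cause was not tested beyond the construction of these normalizations. With 1 mouse left out at a time, the medians ranged from -0.0527 to -0.0282 for the MED23 null response, from 0.0574 to 0.1382 for the difference in response, from -0.0674 to 0.0632 for mock against Med23flox/flox and from -0.0647 to 0.0506 against both control genotypes, and from -0.046 to 0.027 between control genotypes. For αCD3 they ranged from 0.0662 to 0.1757 against Lck-Cre, from -0.001 to 0.1844 against Med23flox/flox, from 0.0621 to 0.1916 against both and from -0.0364 to 0.0439 between control genotypes. The value of 0.1382 is without Med23flox/flox mouse 2, 0.1757, 0.1844 and 0.1916 are without MED23 null mouse 1, and -0.001 without MED23 null mouse 2. The mock medians thus had no stable sign, and that against Lck-Cre, too, became -0.0268 without Lck-Cre mouse 2. Without the block by mouse no call was gained. The medians of the responses were the same (-0.1103 for control), by construction, since each mouse has 1 array per treatment. Replicate numbers mark different mice across genotypes. A block by number is balanced over the genotypes and so could not move the mock median against Lck-Cre (0.0204).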
